A study of Mus musculus with 8 samples.

Results

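Expression of 10 clock output genes was examined in the esophagus of mice with and without monoacylglycerol lipase (MGL), the enzyme that breaks down the endocannabinoid 2-arachidonoylglycerol. The genes were the D-box factors Nfil3, Dbp, Tef and Hlf, the REV-ERB receptors Nr1d1 and Nr1d2, the opposing receptor Rora, and the E-box repressors Ciart, Bhlhe40 and Bhlhe41. They were taken by symbol from the deposited count table, and all 10 were among the 14864 genes tested, out of 32849 listed symbols. The set was put together with the MGL KO against MGL WT values of these same libraries known. The differences between the groups for these 10 genes are therefore given as a description, without a test of their own.

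RNA came from frozen whole esophagus of 4 libraries labelled MGL KO and 4 labelled MGL WT, all from healthy animals per the study. The MGL KO mice are a whole-body knockout line and were bred in-house with WT littermates, per the study's methods, which name young adult mice of both sexes. The Y-linked genes summed to between 185.6 and 223.7 normalized CPM (CPM, counts scaled to the size of each library) in MGL KO and between 193.8 and 211.1 in MGL WT, so they were present in all 8 libraries. Xist, the RNA of the inactive X chromosome, was at 6.23 normalized CPM in MGL KO 2 and at most 0.787 in the other 7 libraries. The labels give no hour of dissection, which is not given in the sources used here. A difference in hour between the groups was not tested and cannot be told apart here from a difference by genotype. The study counts its replicates as esophagi, while the labels do not tie libraries to mice, and the p-values measure the spread between these libraries.

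The circadian clock is a feedback loop in which the activators BMAL1 and CLOCK bind E-box sequences and switch on genes for their own repressors. Its outputs include transcription factors that pass the rhythm on. The PAR-bZIP proteins DBP, TEF and HLF activate genes through the D-box, and NFIL3, also called E4BP4, binds the same sequence and represses. The REV-ERB receptors repress genes that carry a ROR element, among them Bmal1 and Nfil3, and the receptor RORα activates through the same element. In tissues with a running clock Nfil3 and Dbp peak at opposite times of day, and clock output genes are rhythmic in most peripheral organs.

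The libraries held between 13479069 and 17090152 counts. Mgll, the targeted gene, was at 12.6, 16.0, 13.1 and 13.2 normalized CPM in MGL KO 1 to 4 and at 83.3, 66.6, 88.3 and 86.7 in MGL WT 1 to 4, a log2 fold change of -2.57 (SE 0.13, adjusted p = 0.000133, quasi-likelihood test of edgeR, Benjamini-Hochberg adjusted over all genes tested). All 8 libraries expressed esophageal markers, with the 8 squamous epithelium genes summing to between 4735 and 17576 normalized CPM and the 8 skeletal muscle genes to between 33352 and 85573. MGL KO 4 stood apart in airway genes: 7 markers of ciliated cells summed to 611.9 normalized CPM there and to at most 20.3 elsewhere. The 6 markers of airway secretory cells summed to 8342 there, to 51.3 in MGL KO 1 and to at most 3.03 elsewhere. MGL KO 2 had the highest skeletal muscle sum and the lowest squamous sum of its group. The part of the airway markers in the results was not tested. The skeletal muscle and squamous levels were each added as a covariate, as given below. Values without a library are given where they move. In whole tissue, fewer cells of a type and less RNA per cell cannot be told apart.

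Clock factors act through short sequence motifs in promoters, and the windows below show the matches found, which were in 4 of these genes. The search covered 300 bases, from 250 bases before to 50 bases after each RefSeq start site on GRCm38.p6, on both strands. The letters were CACGTG for the E-box, TTACGTAA and TTATGTAA for the D-box, and TAGGTCA and TGGGTCA for the core of the ROR element. No match overlapped another. Of 32851 promoters in the table, 7.15% held the E-box, 1.06% the D-box and 6.45% the ROR element core. A promoter entry was found for 9 of the 10 genes and not for Bhlhe40. The E-box letters were in 3 of the 9, namely Tef, Ciart and Bhlhe41. The ROR element core was in 1 of the 9, Nfil3, and the D-box letters in 0 of the 9. The absence of a match says only that these letters are not in this window.

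The Nfil3 window is shown because the gene is a known REV-ERB target, with the ROR element core in capitals. It reads the gene's strand, the reverse strand at chr13:52981033-52981062, so the core appears as its reverse complement, from 12 to 6 bases before the RefSeq start. Transcripts in GENCODE begin 292 bases upstream of that start.
Nfil3: gcgctcggaacTGACCTActaacacacatc

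The next windows show E-boxes in capitals in genes that BMAL1 and CLOCK are known to switch on or that lie in the same output group. The Tef windows are on the forward strand at chr15:81802534-81802563 and chr15:81811264-81811293, before each of 2 listed start sites. The Ciart stretch is on the reverse strand at chr3:95882255-95882356 and is shown at greater length because it holds 3 E-boxes, which begin 116, 58 and 44 bases before the start. The Bhlhe41 window is on the reverse strand at chr6:145865556-145865585. GENCODE transcripts begin 252 bases upstream of the RefSeq start at the first Tef start and 152 bases upstream at Bhlhe41, so a position before the start depends on the annotation there too.
Tef, first start: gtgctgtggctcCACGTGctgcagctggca
Tef, other start: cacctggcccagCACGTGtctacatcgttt
Ciart: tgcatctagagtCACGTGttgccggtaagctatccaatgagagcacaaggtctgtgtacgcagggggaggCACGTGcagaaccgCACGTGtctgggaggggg
Bhlhe41: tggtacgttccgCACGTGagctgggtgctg

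For comparison, the same search in 7 core clock genes found the ROR element core in Bmal1, the gene by which REV-ERB receptors close their loop, 2 D-boxes in Per3, and an E-box in Per1 and in Cry1, which are known targets of BMAL1 and CLOCK. An E-box was thus in 2 of the 7, and the ROR element core and the D-box in 1 each. The Bmal1 window is on the forward strand at chr7:113207530-113207559. The Per3 windows are on the reverse strand at chr4:151044852-151044881 and chr4:151044805-151044834.
Bmal1: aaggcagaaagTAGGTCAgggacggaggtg
Per3, farther from the start: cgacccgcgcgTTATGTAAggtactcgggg
Per3, nearer to the start: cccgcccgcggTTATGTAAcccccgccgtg

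Nfil3 was higher in MGL KO and 8 of the other 9 genes were lower, Rora being the exception. The log2 fold changes of the 10 genes had a median of -0.38, and those of all genes tested had a median of 0.02. A negative log2 fold change was found in 47% of all genes tested. Nfil3 was the 1 gene of the 10 whose groups did not overlap, where 6.02% of all genes tested had groups that did not overlap. At an adjusted p under 0.05, edgeR's quasi-likelihood test called 0 of the 10, and 3 of the 10 (Nfil3, Dbp and Tef) had an unadjusted p under 0.05, as did 1285 of all genes tested, or 8.65%. The same test called 7 of all genes, or 0.0471%. The exact test of edgeR, which the study's methods name, called 1 of the 10, Nfil3, and 0.437% of all filtered genes. It called 0.185% when every gene with a count was kept, again with Nfil3. The study's own list of significant genes also holds Nfil3. DESeq2 called 2, Nfil3 and Dbp, and 0.935% of the genes to which it gave an adjusted p. Limma-voom with quality weights called 0 of the 10 and 25 of all genes. Since the contrast chose the genes, nothing is read from these counts.

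**Figure D1:**
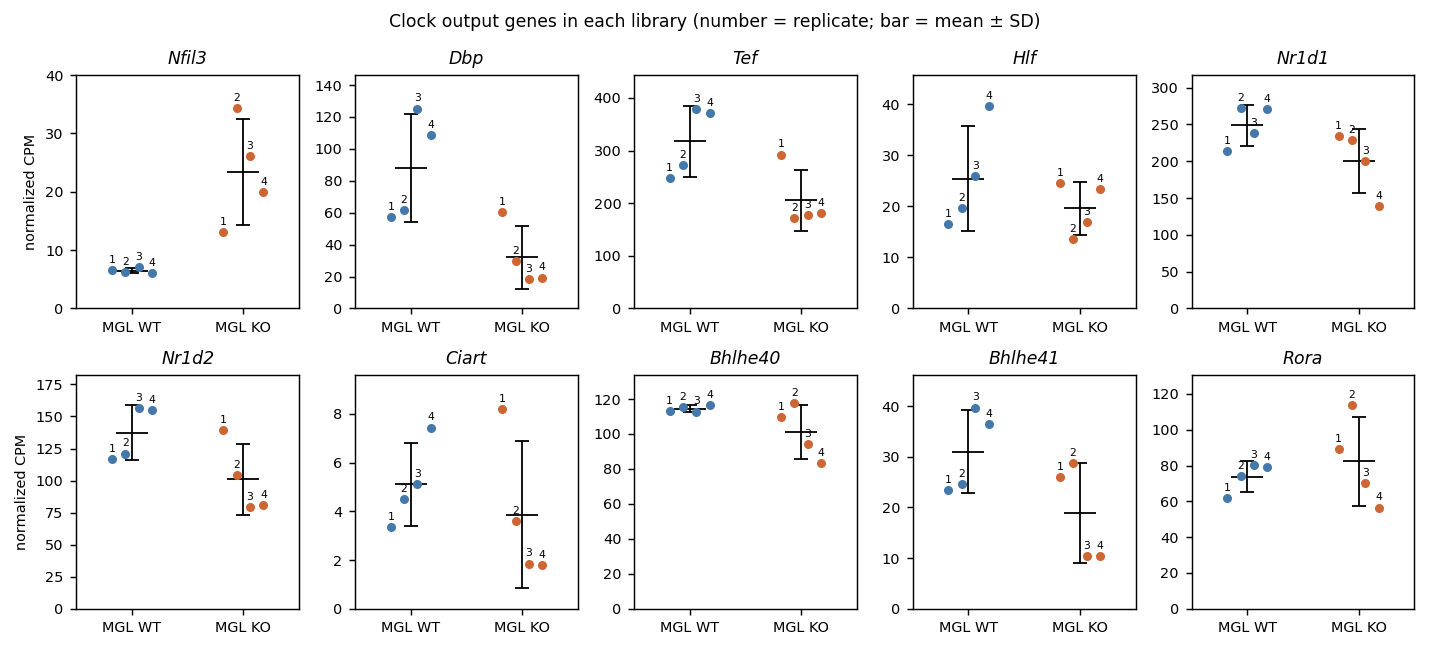
Normalized CPM of the 10 clock output genes in each MGL WT (blue) and MGL KO (orange) library, on linear axes that start at 0. Points are libraries with their replicate numbers, and bars give the mean ± SD (n = 4). Nfil3 was at 13.0 or more in every MGL KO library and at 7.10 or less in every MGL WT library, while the groups of the other 9 genes overlapped.

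Nfil3 is the repressor of the D-box family and is also known in immune cells, where it is needed for several lymphoid lineages. It was at 13.0, 34.4, 26.1 and 19.95 normalized CPM in MGL KO 1 to 4 and at 6.53, 6.22, 7.10 and 6.06 in MGL WT 1 to 4. Every MGL KO library was above every MGL WT library, and the MGL WT libraries lay close together while the MGL KO libraries spread. The means were 23.4 ± 9.07 and 6.48 ± 0.458 (SD, n = 4), a 3.60-fold difference (log2 fold change 1.85, SE 0.27). The counts behind these values ran from 93 to 423 per library. It was 1.61 on the log2 scale without MGL KO 2, its highest library, 2.05 without MGL KO 1, its lowest MGL KO library, and 1.92 without MGL KO 4, the library with airway transcripts. The 8 leukocyte markers summed to between 53.7 and 98.0 normalized CPM in MGL KO and between 51.6 and 275.7 in MGL WT, and the gene for eosinophil peroxidase, Epx, was at 0 in all 8 libraries.

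Dbp, the most strongly rhythmic of the D-box activators in many tissues, was the gene with the largest negative difference of the 10. Its values were 60.6, 29.5, 18.6 and 19.3 normalized CPM in MGL KO 1 to 4 and 57.3, 61.9, 125.2 and 108.7 in MGL WT 1 to 4. The 3 lowest values were all MGL KO, but MGL KO 1 lay within the MGL WT range, above MGL WT 1. The means were 32.0 ± 19.7 and 88.3 ± 33.9 (SD, n = 4), which is 2.76-fold lower in MGL KO (log2 fold change -1.46, SE 0.42). Without MGL KO 1 the log2 fold change was -1.97, and without MGL WT 3 it was -1.24. Dbp shares 15.5% of its exon bases with Sphk2, a sphingosine kinase on the opposite strand, and Sphk2 had a log2 fold change of -0.07 (SE 0.11).

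Tef, a D-box activator with a high and usually flatter rhythm, had 292.4, 172.3, 176.7 and 180.7 normalized CPM in MGL KO 1 to 4 and 248.0, 272.7, 378.8 and 371.9 in MGL WT 1 to 4. The pattern over libraries was that of Dbp: MGL KO 2 to 4 were below all MGL WT libraries, MGL KO 1 was inside their range, and MGL WT 3 and 4 were the highest. Tef had a log2 fold change of -0.63 (SE 0.22), with means of 205.5 ± 58.0 and 317.8 ± 67.2 (SD, n = 4). Without MGL KO 1 it was -0.84. Hlf, the remaining PAR-bZIP gene, was at 24.5, 13.6, 16.9 and 23.4 normalized CPM in MGL KO 1 to 4 and at 16.5, 19.6, 25.9 and 39.6 in MGL WT 1 to 4. Its groups overlapped between 16.5 and 24.5 normalized CPM, and MGL WT 3 and 4 were above all MGL KO libraries, MGL WT 4 by a wide margin. The log2 fold change of -0.37 (SE 0.29) was -0.07 without MGL WT 4.

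Because activators and repressor share the D-box, their balance was taken within each library, where it does not depend on scaling between libraries. The log2 ratio of Dbp to Nfil3 counts was 2.22, -0.22, -0.49 and -0.05 in MGL KO 1 to 4 and 3.14, 3.31, 4.14 and 4.16 in MGL WT 1 to 4. In 3 of the 4 MGL KO libraries Nfil3 had more counts than Dbp, although per kilobase of exon Dbp was above Nfil3 in all 8 libraries (8.50 against 6.94, 5.35 against 5.27 and 5.56 against 4.03 CPM per kilobase in MGL KO 2, 3 and 4). In every MGL WT library Dbp had 8.79 to 17.9 times the counts of Nfil3. The means were 0.36 ± 1.25 and 3.69 ± 0.54 (SD, n = 4), a difference of -3.32, which was -3.94 without MGL KO 1 and -3.04 without MGL KO 3. Since both genes were among those chosen on this contrast, the ratio is again a description.

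Per length, that is in CPM per kilobase of exon, the 3 PAR-bZIP genes summed to 56.4, 31.3, 29.2 and 30.8 in MGL KO 1 to 4 and to 48.9, 53.7, 85.7 and 82.1 in MGL WT 1 to 4. MGL KO 1 was again the library inside the MGL WT range. Nfil3 made up 4.46%, 18.1%, 15.3% and 11.6% of the summed CPM per kilobase of the 4 D-box genes in MGL KO 1 to 4 and 2.62%, 2.29%, 1.65% and 1.47% in MGL WT 1 to 4. The repressor was thus the smaller part of the family in every library, and its share did not overlap between the groups.

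**Figure D2:**
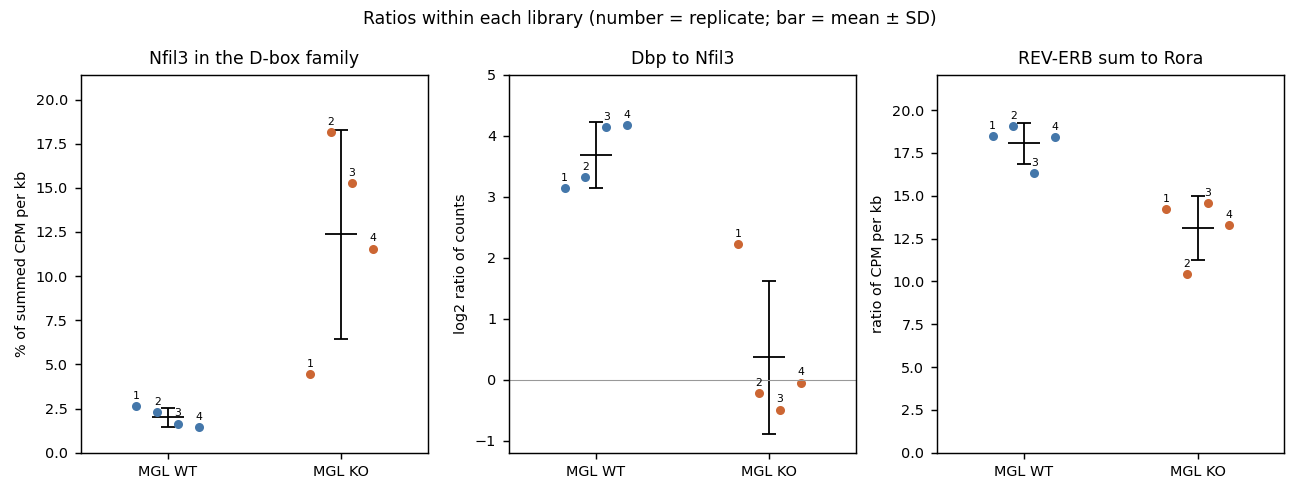
Ratios within each MGL WT (blue) and MGL KO (orange) library, with replicate numbers and the mean ± SD (n = 4). From left to right are plotted the Nfil3 share of the summed CPM per kilobase of Nfil3, Dbp, Tef and Hlf in percent, the log2 ratio of Dbp to Nfil3 counts, and the ratio of the summed CPM per kilobase of Nr1d1 and Nr1d2 to that of Rora. In all 3 panels the groups did not overlap, and in the first pair of panels MGL KO 1 was the MGL KO library nearest to MGL WT. The genes were chosen on this contrast. Of the sums and ratios not plotted, Bmal1 to Dbp did not overlap. The PAR-bZIP sum, the REV-ERB sum, Nr1d1 to Nr1d2 and Bhlhe41 to Bhlhe40 overlapped.

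Nr1d1 and Nr1d2 encode REV-ERBα and REV-ERBβ, heme-binding receptors that recruit the NCOR1 and HDAC3 corepressor to ROR elements. Nr1d1 was at 234.2, 228.8, 200.1 and 139.2 normalized CPM in MGL KO 1 to 4 and at 213.5, 272.7, 238.0 and 270.4 in MGL WT 1 to 4. The groups overlapped through MGL WT 1, and MGL KO 4 was the lowest of the 8. Nr1d1 had a log2 fold change of -0.31 (SE 0.18), which was -0.17 without MGL KO 4. Exons of Thra, the thyroid hormone receptor gene on the opposite strand, cover 52.3% of the Nr1d1 exon bases, so without knowledge of strand the counts of this pair cannot be told apart there. Thra had a log2 fold change of -0.11 (SE 0.10), with 92.5 ± 10.7 normalized CPM in MGL KO and 99.97 ± 3.72 in MGL WT (SD, n = 4).

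Nr1d2, which shares no exon bases with another annotated gene, was at 139.4, 104.0, 79.6 and 80.8 normalized CPM in MGL KO 1 to 4 and at 116.6, 121.0, 156.3 and 155.1 in MGL WT 1 to 4. As for Dbp and Tef, MGL KO 2 to 4 were below every MGL WT library and MGL KO 1 was among them. The means were 101.0 ± 28.0 and 137.3 ± 21.4 (SD, n = 4), with a log2 fold change of -0.44 (SE 0.20) that was -0.63 without MGL KO 1. The ratio of Nr1d1 to Nr1d2 counts ran from 1.68 to 2.51 in MGL KO and from 1.52 to 2.25 in MGL WT, so the balance of the pair overlapped between the groups.

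Rora, which encodes the activator that competes with the REV-ERB receptors for the ROR element and is also expressed in muscle, was at 89.2, 113.8, 70.0 and 56.5 normalized CPM in MGL KO 1 to 4 and at 61.6, 74.0, 80.3 and 78.9 in MGL WT 1 to 4. MGL KO 1 and 2 lay above the MGL WT range, MGL KO 4 below it and MGL KO 3 inside it. The log2 fold change of 0.16 (SE 0.20) became -0.03 without MGL KO 2, the library with the most skeletal muscle transcripts, and was 0.30 without MGL KO 4, the library with the fewest. Over the 8 libraries, the deviations of Rora from its group means followed those of the skeletal muscle sum (r = 0.92, rho = 0.81), and r was 0.64 without MGL KO 2 and MGL KO 4. The summed CPM per kilobase of Nr1d1 and Nr1d2 was 14.2, 10.4, 14.6 and 13.3 times that of Rora in MGL KO 1 to 4 and 18.5, 19.1, 16.3 and 18.4 times in MGL WT 1 to 4. The receptor repressors were therefore above Rora per length in every library. Their ratio to Rora was lower in each MGL KO library than in each MGL WT library. Nr1d1, Nr1d2 and Rora each overlapped between the groups and were chosen on this contrast, so the ratio is a description. The sum includes the Nr1d1 bases shared with Thra. The lowest ratio was in MGL KO 2, the library with the most skeletal muscle transcripts.

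Ciart, also called Chrono, binds BMAL1 and blocks its activity at E-boxes. It was the gene with the fewest counts of the 10, between 30 and 134 per library, at 8.21, 3.61, 1.85 and 1.80 normalized CPM in MGL KO 1 to 4 and at 3.35, 4.51, 5.13 and 7.43 in MGL WT 1 to 4. Its highest value and its 2 lowest values were all MGL KO. The log2 fold change was -0.40 (SE 0.51), -1.08 without MGL KO 1 and -0.16 without MGL KO 4, so the size of the difference rested on single libraries.

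Bhlhe40 and Bhlhe41, also called DEC1 and DEC2, are basic helix-loop-helix repressors that compete with BMAL1 and CLOCK at the E-box. Bhlhe40 was at 109.5, 117.8, 94.2 and 83.2 normalized CPM in MGL KO 1 to 4 and at 113.2, 115.6, 112.8 and 116.6 in MGL WT 1 to 4. MGL KO 3 and 4 were below all other libraries, and the 4 MGL WT libraries were within a few CPM of each other. Its log2 fold change was -0.18 (SE 0.12), and -0.10 without MGL KO 4. Bhlhe41 was at 26.0, 28.8, 10.4 and 10.5 normalized CPM in MGL KO 1 to 4 and at 23.4, 24.7, 39.7 and 36.4 in MGL WT 1 to 4. Here MGL KO 1 and 2 lay within the MGL WT range and MGL KO 3 and 4 below it, and the log2 fold change was -0.72 (SE 0.37), -0.99 without MGL KO 2 and -0.52 without MGL KO 3. The predicted gene Gm43909 on the opposite strand covers 22.1% of the Bhlhe41 exon bases. Both genes lie on chromosome 6 of GRCm39, as Mgll does, at distances of 19.8 Mb (Bhlhe40) and 57.0 Mb (Bhlhe41).

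**Figure D3:**
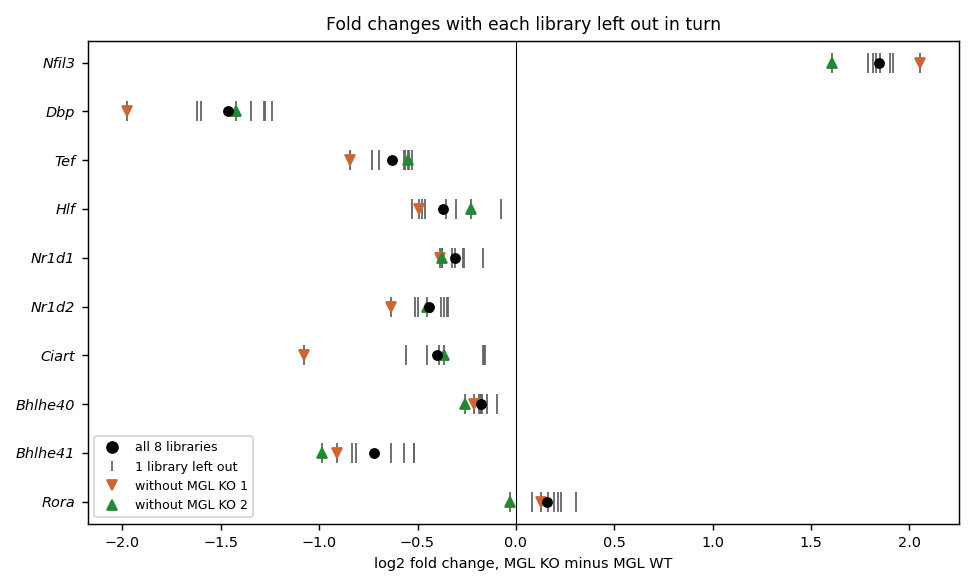
Log2 fold changes (MGL KO minus MGL WT) of the 10 genes with all 8 libraries (black dots) and with each library left out in turn (ticks, with MGL KO 1 and MGL KO 2 marked by triangles). Leaving out MGL KO 1 moved all genes except Rora away from 0, and Rora crossed 0, to -0.03, when MGL KO 2 was left out.

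The core clock genes were set beside their outputs, with calls adjusted over all genes tested. The 26 genes of 6 lists held the core activators and repressors, further nuclear receptors, REV-ERB corepressors, clock kinases and ubiquitin ligases, and widely rhythmic outputs. Of the 24 tested, edgeR's quasi-likelihood test called 0 higher and 0 lower, and 9 had an unadjusted p under 0.05, where 8.65% of all genes tested did. The exact test, run on the filtered genes or on every gene with a count, and DESeq2 also called 0 of the 24. The log2 fold change was positive for 18 and negative for 6, with a median of 0.10, beside 0.02 for all genes tested. The median of the listed genes ranged from 0.05 with library size alone to 0.17 without MGL WT 3.

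Among the activators, Bmal1, listed under its older symbol Arntl, was at 34.2, 51.2, 51.1 and 39.01 normalized CPM in MGL KO 1 to 4 and at 30.4, 31.8, 19.3 and 18.1 in MGL WT 1 to 4. All MGL KO libraries were above all MGL WT libraries, with a log2 fold change of 0.81 (SE 0.22, adjusted p = 0.478, edgeR). Of the 24 listed genes tested, the groups did not overlap for Bmal1, Cry1 and a widely rhythmic output. Among all genes tested this held for 6.02%. Npas2, which can take the place of CLOCK as the partner of BMAL1, was at 11.8, 13.7, 22.9 and 26.9 in MGL KO 1 to 4 and at 12.9, 12.2, 7.43 and 5.87 in MGL WT 1 to 4 (log2 fold change 0.97, SE 0.34, adjusted p = 0.512, edgeR). MGL KO 1 was inside the MGL WT range for Npas2. Clock had a log2 fold change of 0.36 (SE 0.14, adjusted p = 0.550, edgeR). The ratio of Bmal1 to Dbp counts was 0.565, 1.73, 2.75 and 2.02 in MGL KO 1 to 4 and 0.530, 0.515, 0.154 and 0.166 in MGL WT 1 to 4, with MGL KO 1 just above MGL WT 1.

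Among the repressors of the loop, Cry1 was at 14.9, 30.9, 20.04 and 27.1 normalized CPM in MGL KO 1 to 4 and at 13.1, 13.3, 14.1 and 10.7 in MGL WT 1 to 4, again with no overlap (log2 fold change 0.86, SE 0.22, adjusted p = 0.438, edgeR). Per3, which holds the D-box letters shown above, was at 46.2, 15.2, 19.7 and 31.4 in MGL KO 1 to 4 and at 42.1, 50.1, 78.4 and 75.3 in MGL WT 1 to 4 (log2 fold change -1.12, SE 0.35, adjusted p = 0.494, edgeR). MGL KO 1 lay in the MGL WT range, as it did for Dbp and Tef. Per1 had a log2 fold change of 0.66 (adjusted p = 0.659), Per2 of -0.12 (adjusted p = 0.959) and Cry2 of -0.09 (adjusted p = 0.80), all from edgeR.

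**Figure D4:**
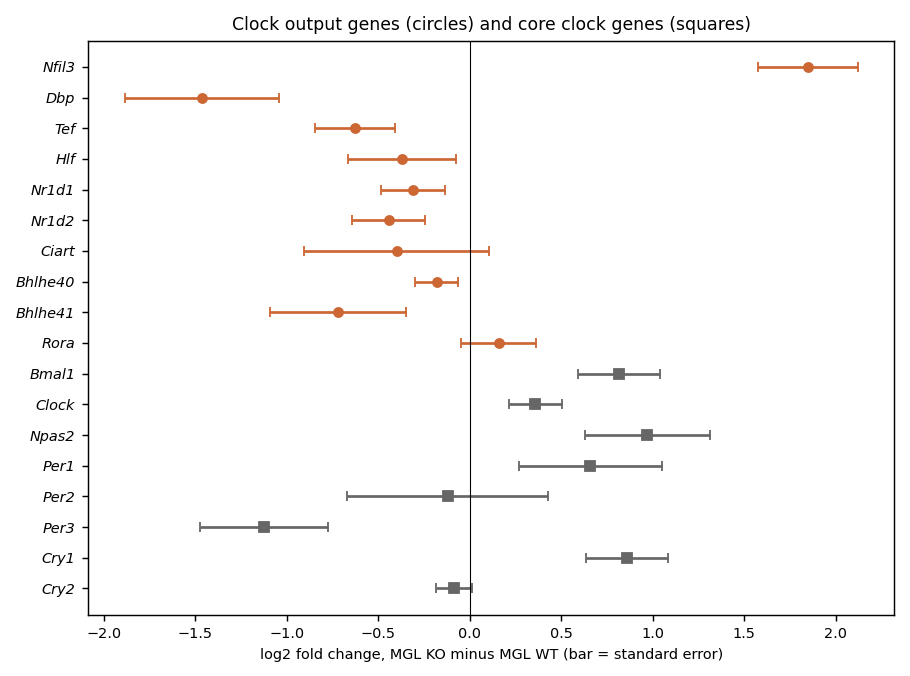
Log2 fold changes (MGL KO minus MGL WT) with standard errors for the 10 clock output genes (circles) and the 8 core clock genes (squares), from edgeR's quasi-likelihood fit. Nfil3 was at 1.85 and Dbp at -1.46, and Bmal1, Npas2 and Cry1 lay at 0.81 to 0.97 while Per3 was at -1.12.

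Genes for proteins that work with the REV-ERB receptors and the clock repressors had log2 fold changes closer to 0. The corepressor genes with the largest differences were Hdac3 (log2 fold change -0.11, SE 0.09, adjusted p = 0.732, edgeR) and Ncor1 (0.09, SE 0.11, adjusted p = 0.806). Among the kinases and ubiquitin ligases these were Csnk1e (0.12, SE 0.15, adjusted p = 0.825) and Csnk1d (0.11, SE 0.08, adjusted p = 0.711), which encode casein kinases that phosphorylate PER proteins. Rorb and the ligase gene Fbxl21 had at most 6 and 12 counts per library and were not tested.

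Among the 7 widely rhythmic outputs, the largest differences were those of Wee1, a cell cycle kinase gene, and Tsc22d3, which encodes the glucocorticoid-induced leucine zipper. Wee1 was at 33.3, 19.8, 22.3 and 22.9 normalized CPM in MGL KO 1 to 4 and at 14.1, 12.04, 9.73 and 22.2 in MGL WT 1 to 4 (log2 fold change 0.76, SE 0.27, adjusted p = 0.519, edgeR). Tsc22d3 was at 248.7, 223.0, 234.9 and 195.0 in MGL KO 1 to 4 and at 98.0, 112.6, 136.0 and 203.4 in MGL WT 1 to 4 (log2 fold change 0.71, SE 0.22, adjusted p = 0.478, edgeR). In both genes MGL WT 4 was the MGL WT library that reached the MGL KO range.

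The spread within the groups differed among the 10. The biological coefficient of variation, the replicate-to-replicate spread that edgeR estimates beyond counting error, had a median of 0.229 over all genes tested. It was highest for Ciart (0.514), Dbp (0.408) and Bhlhe41 (0.373), and at least 82.1% of all genes tested were at or below each of them. It was lowest for Bhlhe40 (0.148), with 14.8% of genes at or below it. Nfil3 was at 0.287, Hlf at 0.306, Tef at 0.237, and Nr1d1, Nr1d2 and Rora at 0.199 to 0.218.

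Some of this spread was shared among the output genes. With the group means removed, the log2 CPM of Nr1d2 followed that of Dbp over the 8 libraries (r = 0.991, rho = 1), and of 14259 genes compared it was the one most like Dbp, before Coq10b (r = 0.983) and Cep85l (r = 0.970). The r of Nr1d2 was 0.990 without MGL KO 1 and MGL WT 3, the libraries farthest from the median. Ciart (r = 0.92, rho = 0.90), Tef (r = 0.93, rho = 0.62) and Bhlhe41 (r = 0.84, rho = 0.86) also went with Dbp, and Rora (r = 0.61, rho = 0.79), Nr1d1 (r = 0.55, rho = 0.57), Bhlhe40 (r = 0.54, rho = 0.64) and Hlf (r = 0.54, rho = 0.43) had a lower r. Npas2 (r = -0.90, rho = -0.74) and Bmal1 (r = -0.74, rho = -0.55) went against it. In MGL WT, replicates 3 and 4 were high and 1 and 2 low for Dbp, Tef, Hlf, Nr1d2, Ciart, Bhlhe41 and Rora. The reverse held for Bmal1 and Npas2. These values share the same 8 libraries and their scaling, and are given without a p.

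**Figure D5:**
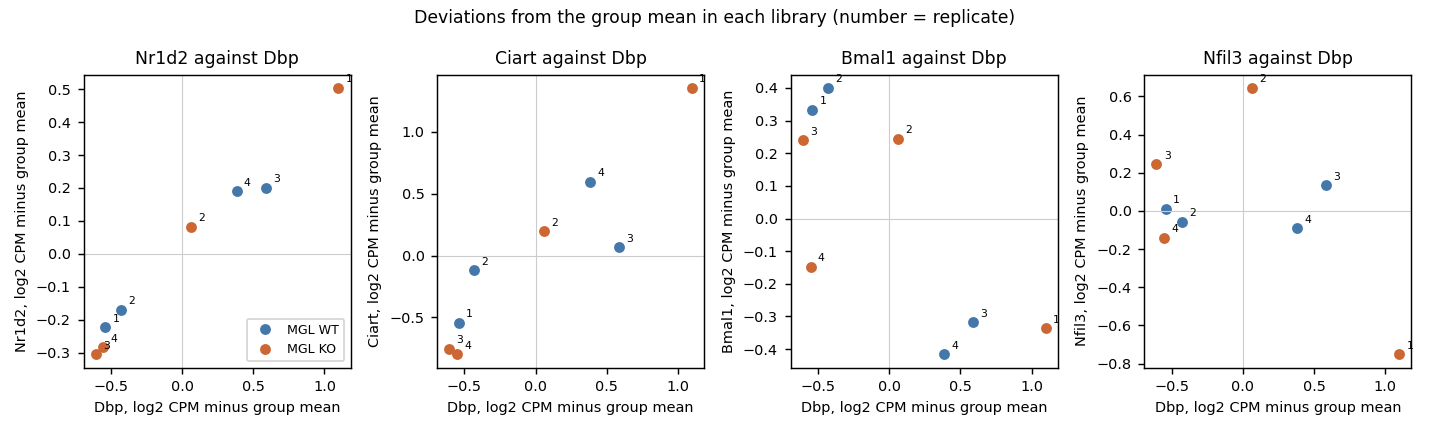
Deviation of Nr1d2, Ciart, Bmal1 and Nfil3 from the mean of their own group against the deviation of Dbp, in log2 CPM, for each MGL WT (blue) and MGL KO (orange) library with its replicate number. Nr1d2 (r = 0.991) and Ciart (r = 0.92) go with Dbp, Bmal1 goes against it (r = -0.74), and Nfil3 lies mostly flat apart from MGL KO 1 and MGL KO 2 (r = -0.45).

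Nfil3 did not share this pattern as closely. Its deviations against those of Dbp gave r = -0.45 (rho = -0.29), and r was 0.20 without MGL KO 1 and MGL WT 3, so the relation rested on those libraries. Of 14259 genes compared, those most like Nfil3 were Snapc2 (r = 0.977, rho = 0.90), Mfsd4b4 (r = 0.977, rho = 0.81) and Septin4 (r = 0.971, rho = 0.98). They are the highest r of that search over 8 libraries, given without a p. Without MGL KO 1 and MGL KO 2 these r were 0.869, 0.755 and 0.905.

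The skeletal muscle share differed between libraries in both groups, from 33352 to 85573 normalized CPM in MGL KO and from 43578 to 71945 in MGL WT. Besides Rora, Bhlhe40 (r = 0.79, rho = 0.43), Bhlhe41 (r = 0.75, rho = 0.60) and Nr1d1 (r = 0.73, rho = 0.52) went with it over the 8 libraries. Without MGL KO 2 and MGL KO 4, r was -0.07 for Bhlhe40, 0.21 for Nr1d1 and 0.45 for Bhlhe41, so the relations of Bhlhe40 and Nr1d1 rested on those libraries. Nfil3 gave r = 0.52 (rho = 0.64), and 0.15 without them, and Dbp gave r = 0.45 (rho = 0.40), and 0.49 without them. Against the squamous epithelium sum, Nfil3 gave r = -0.74 (rho = -0.55), and -0.54 without MGL KO 2 and MGL WT 3, the libraries farthest from the median of that sum, while Dbp gave r = -0.07 (rho = -0.05), and 0.45 without them. With the skeletal muscle level as a covariate, added after the data were seen, edgeR's quasi-likelihood test called 1 of the 10, Nfil3, and 36 of all genes (0.242%). With the squamous epithelium level it again called Nfil3 alone of the 10, and 10 of all genes (0.0673%).

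Per length, Nr1d1 was the most abundant of the 10 in MGL WT esophagus at 76.7 ± 8.72 CPM per kilobase (SD, n = 4), a value that includes the bases shared with Thra. It was followed by Tef (38.5 ± 8.13), Dbp (25.4 ± 9.76), Bhlhe40 (18.03 ± 0.287), Nr1d2 (15.2 ± 2.37), Rora (5.10 ± 0.588), Bhlhe41 (4.34 ± 1.15), Hlf (3.67 ± 1.48), Ciart (1.96 ± 0.659) and Nfil3 (1.31 ± 0.092). Neighbours in this order overlapped in range, except Nr1d1 with Tef, Bhlhe40 with Nr1d2, and Nr1d2 with Rora. In MGL KO the order was Nr1d1 (61.9 ± 13.4), Tef (24.9 ± 7.03), Bhlhe40 (15.9 ± 2.44), Nr1d2 (11.2 ± 3.09), Dbp (9.22 ± 5.69), Rora (5.69 ± 1.72), Nfil3 (4.72 ± 1.83), Hlf (2.83 ± 0.751), Bhlhe41 (2.64 ± 1.38) and Ciart (1.48 ± 1.16). Only Nr1d1 with Tef and Tef with Bhlhe40 did not overlap there. Dbp stood at place 3 in MGL WT and at place 5 in MGL KO, and Nfil3 at place 10 and at place 7.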

How the data were processed

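Poly(A)-selected RNA of 4 MGL KO and 4 MGL WT esophagi was sequenced by the study. Per the submitters' processing notes, reads were checked with FastQC 0.11.9, trimmed with cutadapt and aligned to GRCm39 with STAR 2.7.10b. The authors deposited whole-number counts per gene symbol, without normalization. The counting tool, the annotation and the use of strand are not given in the sources used here.

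Genes were kept with filterByExpr at a minimum count of 10 (14864 genes, 98.1% to 99.9% of the counts of a library) and scaled with TMM (factors 0.82 to 1.11). Groups, taken from the labels, were compared with the quasi-likelihood test of edgeR 4.0.16 in R 4.3.3, with Benjamini-Hochberg adjustment at 0.05, in place of the exact test of the study. The SE of a log2 fold change was its size divided by the square root of F. Log2 CPM had a prior count of 1. At these depths 3 counts equal 0.167 to 0.271 normalized CPM, which covers counting error only. Replicates of a group differed by more than sampling noise (chi-square per degree of freedom of 13.6 or more).

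Exon lengths and overlaps came from GENCODE M39 on GRCm39. Promoter sequences came from RefSeq on GRCm38.p6, and no coordinates were converted. The text names the 10 genes, Mgll, the core clock genes, any called gene and the 2 largest differences of each other clock list, and the 3 genes most like Nfil3 and Dbp among those with a mean CPM of at least 1. 1 gene that this rule names is not reported here. The genes, lists and tests were chosen with earlier results of these data known. Alternatives were edgeR's exact test, DESeq2 1.42.0, limma-voom (limma 3.58.1) with quality weights, RLE factors, library size alone, other filters, a replicate block, covariates and leaving out each library.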

Additional observations from a re-analysis of the deposited data

Results flagged for a closer look

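Among groups of 4 libraries, a value was picked out when its gap to the nearest other library exceeded 0.829 of the range of the group (Dixon's 95% critical value). Of 90 groups compared, 5 met this, where chance gives about 1 in 20, or 4.5. In MGL KO 1, Tef was at 292 normalized CPM with the next MGL KO library at 181, the PAR-bZIP sum was at 56.4 CPM per kilobase with the next at 31.3, and the log2 ratio of Dbp to Nfil3 counts was 2.22 with the next at -0.05. These 3 values share Tef or Dbp and come from the same library. In MGL WT 4, Per1 was at 115 normalized CPM with the next MGL WT library at 42.6. In MGL KO 2, Csnk1d was at 113 normalized CPM with the next MGL KO library at 120.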

How the results depend on the processing

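Leaving out 1 library at a time gave 2 to 5 called genes in place of 7, and 0 to 1 of the 10 output genes called, Nfil3 without MGL KO 1. The number of called genes was 65 with the exact test on filtered genes, 42 with it on all genes with a count, 137 with DESeq2, 25 with limma-voom, 2 without a filter, 3 with a Y-linked covariate and 36 with a skeletal muscle covariate. The 10 output genes held 1 call with either exact test, 2 with DESeq2 and 0 with limma-voom. They held 1 with the skeletal muscle or the squamous epithelium covariate, both covariates chosen after seeing the data. The cause of these differences was not tested. Same-numbered libraries did not deviate together (correlations of -0.14, -0.28, -0.14 and 0.08), and with the replicate number as a block 2 genes were called and 0 of the 10. Rora, at 0.16 with all libraries, ranged from -0.032 without MGL KO 2 to 0.30 without MGL KO 4, and the other 9 genes kept their direction under all 20 alternatives. The number of lower genes stayed at 8 or 9, the median log2 fold change of the 10 ranged from -0.56 (without MGL KO 1) to -0.22 (without MGL WT 4), and 0 of the 24 core clock and related genes were called under any alternative. The Dbp to Nfil3 difference ranged from -3.94 to -3.04. Ciart had the fewest counts of the 10, with 30 to 134 per library.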
